A study of Mus musculus with 28 samples.

Results

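The passage from day 5 to day 10 of reprogramming was followed in fibroblasts that carried the stalling Tet2 mutant, Tet2-E. Of the 28 ATAC-seq libraries of the series, 8 belong to this comparison, 4 of day 10 and 4 of day 5, and they were chosen by their labels. Both groups were Tet2-/- mouse embryonic fibroblasts (MEFs) of embryonic day 12.5 and strain background V6.5 129XBI/6, with doxycycline-inducible OKSM reprogramming factors and the rtTA activator. Both were infected with a pMXs retrovirus carrying Tet2-E, grown on Mito-C-treated feeder MEFs in 2i/LIF+Dox medium under low oxygen, and isolated by SSEA1-RFP flow sorting. Used beside them are 8 Tet2-WT and 8 empty-vector libraries of the same 2 days and treatment, and 4 libraries of unsorted MEFs, which their own genotype label calls untreated controls. Whether replicates came from separate cultures or embryos is not stated in the labels. The p-values therefore reflect only how much these libraries vary, and part of that may be technical. The labels do not say which gate of the sort was kept or how feeder cells were removed, and fewer cells with an open site cannot be told apart from less open chromatin per cell in a bulk library.

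ATAC-seq uses a transposase that cuts DNA where it is not covered by nucleosomes, so a peak marks a stretch of accessible chromatin, such as an active promoter or enhancer. TET enzymes oxidise 5-methylcytosine in DNA stepwise, first to 5-hydroxymethylcytosine and then to formylcytosine and carboxylcytosine, which base excision repair can replace with unmethylated cytosine. A stalling mutant is one that stops mainly at the first product. During reprogramming, enhancers of the fibroblast programme close and those of the pluripotent programme open, some early and some only late. An annotation of genes in mm9, the build of these lists, was not used here, so regions are given by their mm9 coordinates, counted from 1, and the sorted cells were not checked at marker genes.

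Day 10 libraries had the lower background pileup. The background pileup is the number of fragments expected at a position of the genome, as the authors' fold and p of each peak imply it, and it serves here as a relative depth, although the share of fragments outside peaks enters it too. It was 0.768, 0.636, 0.466 and 0.361 fragments in day 10 replicates 1 to 4, against 0.840, 0.919, 0.792 and 0.891 in day 5 replicates 1 to 4. The highest day 10 library was lower than the lowest day 5 library, and the means were 0.558 ± 0.180 at day 10 and 0.860 ± 0.0562 at day 5 (SD over the 4 libraries of a day). The exact permutation p was 0.0286, the smallest that 4 against 4 libraries allow, and 0.1 after Benjamini-Hochberg adjustment over 7 measures per library. The lists held 45871, 40949, 32575 and 27809 peaks at day 10 and 47942, 52475, 50887 and 41414 peaks at day 5. The groups overlapped, since day 10 replicate 1 held more peaks than day 5 replicate 4 (means of 36801 ± 8128 in day 10 libraries and 48180 ± 4886 in day 5 libraries, SD over 4 libraries; exact permutation p = 0.0571, adjusted p = 0.1). Peaks covered 9.46, 8.74, 5.71 and 4.81 Mb at day 10 and 9.71, 11.5, 9.76 and 9.31 Mb at day 5 (exact permutation p = 0.0571, adjusted p = 0.1). The median peak was 137 to 168 bp wide at day 10 and 144 to 177 bp at day 5 (exact permutation p = 0.257, adjusted p = 0.257).

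**Figure D1:**
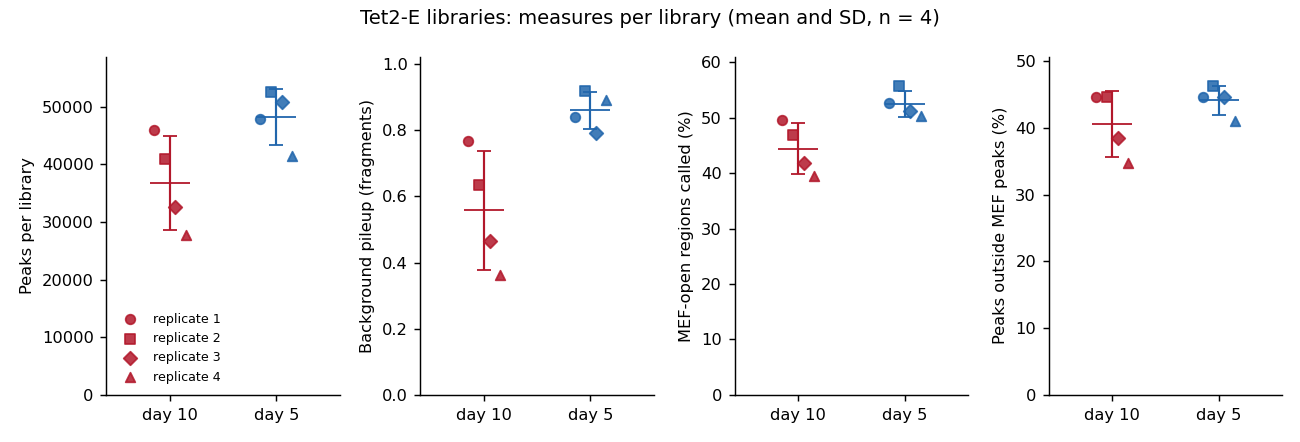
Number of peaks, background pileup in fragments, share in percent of MEF-open regions called and share in percent of peaks outside MEF peaks for the 4 day 10 and the 4 day 5 Tet2-E libraries. Points are libraries, marked by replicate number, and bars are the mean and SD. Background pileup and the MEF-open share do not overlap between the days, and the other measures do.

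On average over both days, lists of one day overlapped more than lists of different days, and the day 5 lists carried most of that excess. The Jaccard index of a pair of lists is the length covered by both divided by the length covered by at least one of them. It averaged 0.399 among the day 10 libraries (0.366 to 0.466 over 6 pairs) and 0.465 among the day 5 libraries (0.459 to 0.472 over 6 pairs), and 0.390 between the days (0.309 to 0.448 over 16 pairs). The mean within days exceeded that between days by 0.0418 (exact permutation p = 0.0286, the smallest possible). The day 5 lists resembled one another evenly, while the day 10 lists varied more. Day 10 replicate 1 overlapped every day 5 list (0.438 to 0.448) more than day 10 replicates 3 and 4 (0.398 and 0.371). The same held for day 10 replicate 2 (0.413 to 0.421, against 0.389 and 0.366). Day 10 replicates 3 and 4 went the other way, each overlapping every day 10 list more than any day 5 list. The excess was 0.0387 when every list was held to the same number of peaks and 0.0338 at a common relative depth, each with an exact permutation p of 0.0286. Without any single day 5 library it was 0.0258 to 0.0332 and the exact permutation p was 0.0857.

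Merging the overlapping peaks of the 8 lists on chromosomes 1 to 19 and X gave 91043 regions. Of these, 34380 were called in a single library, 12435 of them in a day 10 and 21945 in a day 5 library. The 56663 regions called in at least 2 libraries were tested. Among them 13839 were called in all 8 libraries, which is 24.4%. A further 13.7% were called in more day 10 than day 5 libraries, 45.4% in fewer, and the rest in equal numbers.

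A complete gain is a region that every day 10 library called and no day 5 library did (4 of 4 against 0 of 4), and a complete loss is the opposite. There were 100 complete gains, 0.176% of the regions tested, and 875 complete losses, 1.54%, so that 89.7% of the complete changes were losses. No region passed Fisher's exact test after Benjamini-Hochberg adjustment (0 of 56663 regions, 0%; smallest adjusted p = 1). Complete changes are the only patterns with an unadjusted p under 0.05 in 4 against 4 libraries (2-sided Fisher's exact p = 0.0286, 975 regions), so the single regions below are descriptions. The excess of losses over gains differed between ways of choosing peaks, and the part of depth in it was not tested. With the strongest 27809 peaks of every library there were 228 complete gains and 340 complete losses. At a common relative depth, an alternative chosen after the data were seen, each peak's pileup and background were scaled to the lowest background of the 8 libraries. A peak was kept where its scaled -log10 p reached the lowest one deposited for the library with that background. A region without a call at this depth can therefore still hold a deposited peak. There, 256 complete gains stood beside 252 complete losses. With peaks required to cover at least 50% of a region there were 47 gains and 1097 losses. Complete patterns are easier to meet with 7 libraries than with 8. Gains numbered 284 without day 10 replicate 3, 325 without day 10 replicate 4 and 179 without day 5 replicate 2. Losses numbered 1720 and 1356 without day 10 replicates 1 and 2, and 1415, 1470 and 1636 without day 5 replicates 1, 3 and 4.

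**Figure D2:**
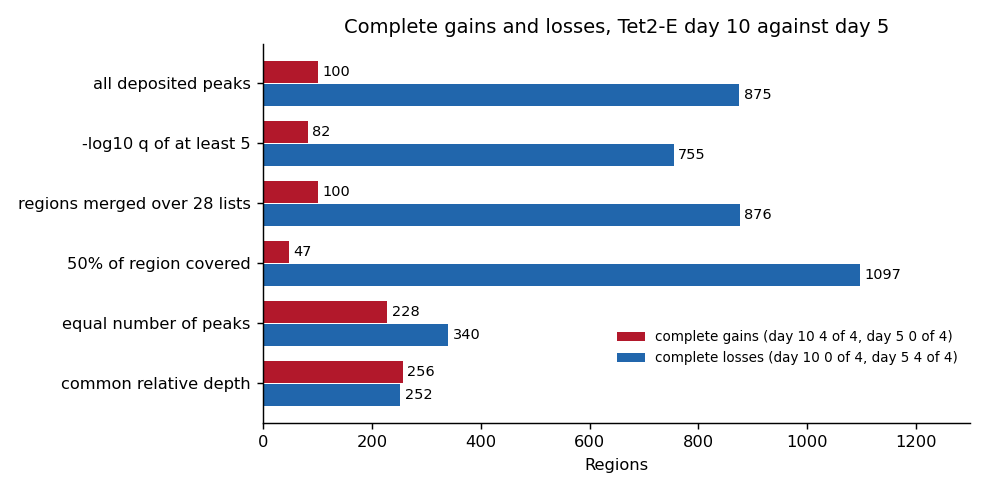
Number of complete gains (upper bar) and complete losses (lower bar) between day 10 and day 5 with Tet2-E, for all deposited peaks and for each way of selecting or matching peaks. Losses exceed gains with all peaks (875 against 100) and the numbers are close at a common relative depth (252 losses, 256 gains).

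Just outside the complete patterns, 184 regions were called in 4 day 10 libraries and 1 day 5 library, and 486 in 3 day 10 libraries and 0 day 5 libraries. On the side of losses, 1676 regions were called in 1 day 10 library and 4 day 5 libraries, and 2248 in 0 day 10 and 3 day 5 libraries. Within day 10, single libraries took unequal parts in these near misses, in the order of their background pileup for the lone calls. Day 10 replicate 1, with the highest background of its group, made 838 of the 1676 lone day 10 calls, and replicate 4, with the lowest, made 131 (7.82%). Of the 486 regions that lacked 1 day 10 call, 46.1% lacked it in replicate 4 and 6.38% in replicate 1. Within day 5 the order was not that of the background. Day 5 replicate 4, with a background of 0.891 and the fewest peaks of its group, made 14 of the 184 lone day 5 calls (7.61%) and lacked the call in 762 of the 2248 regions with 3 day 5 calls (33.9%). Day 5 replicate 3, with the lowest background of its group at 0.792, made 48 of those lone calls and lacked the call in 597 of those regions. Of the 875 complete losses, 158 (18.1%) were still called in all 4 day 5 libraries at the common relative depth. Of the 100 complete gains, 86 were still called in all 4 day 10 libraries there. Day 5 pileups were scaled down more, since every day 5 background was above every day 10 background. These shares therefore cannot be compared, and none was counted over all regions called in every library of a day.

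**Figure D3:**
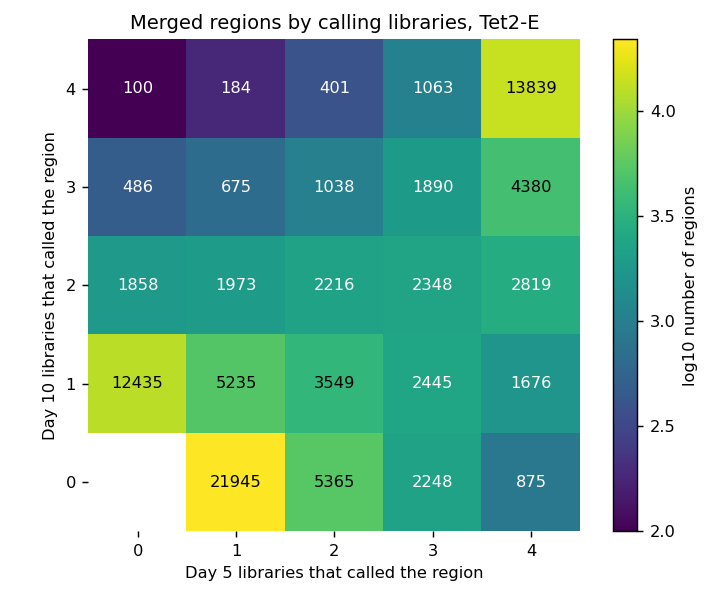
Number of merged regions by how many day 10 libraries (vertical axis) and day 5 libraries (horizontal axis) called them, coloured by the log10 of the number. The top left cell holds the 100 complete gains, the bottom right cell the 875 complete losses and the top right cell the 13839 regions called in all 8 libraries.

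The 10 leading gains were those with the highest fold within their own lists, taken as the median percentile over the day 10 libraries. The fold is the authors' value, the summit pileup plus 1 over the local background plus 1, and it ranks a peak within its own list only. The first lay on chromosome 19 at 56989577 to 56989872, with folds of 12.1, 10.1, 5.41 and 10.4 in day 10 replicates 1 to 4 and no peak in any day 5 library. It was the one named gain with the same complete pattern in the other vectors, called in 4 of 4 Tet2-WT and 4 of 4 empty-vector libraries at day 10, against 0 of 4 and 0 of 4 at day 5, and in no MEF library. The second gain, on chromosome 2 at 143715730 to 143716063, had folds of 10.4, 9.12, 8.19 and 9.74 at day 10. At day 10 it was called in 4 Tet2-WT and 3 empty-vector libraries, against 0 of either at day 5. On chromosome 10 at 88180241 to 88180588 the folds were 9.46, 10.9, 8.98 and 5.88. That region was less specific to the later day outside Tet2-E, with 3 Tet2-WT and 4 empty-vector libraries at day 10, against 1 and 2 at day 5.

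Chromosome 16 held a pair of the leading gains. At 33760689 to 33760905 the day 10 folds were 10.1, 9.16, 7.76 and 9.42, with calls in 4 Tet2-WT and 3 empty-vector libraries at day 10 and none at day 5. At 16367378 to 16367820 they were 11.3, 10.0, 8.08 and 7.72, with calls in 3 Tet2-WT and 4 empty-vector libraries at day 10 and none at day 5. Chromosome 9 also held a pair. The region at 115265837 to 115266370, 534 bp and the widest of the 10, had folds of 9.57, 11.3, 8.01 and 9.0 and was called in all 8 libraries of the other vectors at day 10, against 2 at day 5. The region at 121324731 to 121325112 had folds of 11.9, 10.8, 6.81 and 7.95 and was called in all 8 at day 10, against 3 at day 5. On chromosome 7 the regions at 13512425 to 13512818 and 30051901 to 30052302 had median folds of 9.16 and 8.77. Both were called in all 8 libraries of the other vectors at day 10, against 5 and 1 at day 5. The tenth, on chromosome 4 at 48710265 to 48710491, had a median fold of 8.57 and was called in 6 of those 8 at day 10, against 0 at day 5. All 10 leading gains lacked a peak in every MEF library, and all 10 kept their 4 day 10 calls at the common relative depth. Ranking by fold in the same lists favours keeping those calls.

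The leading losses were ranked in the same way, over the day 5 libraries. The first lay on chromosome 1 at 16696492 to 16696840, with no peak at day 10 and folds of 10.3, 10.2, 7.81 and 11.1 in day 5 replicates 1 to 4. In the other vectors it was called in 1 Tet2-WT and 2 empty-vector libraries at day 10, against 4 and 4 at day 5, and in 1 MEF library. The second, on chromosome 4 at 18064406 to 18064699, had day 5 folds of 9.24, 14.8, 7.26 and 10.6 and was called in 3 Tet2-WT and 2 empty-vector libraries at day 10, against 4 and 4 at day 5. On chromosome 5 at 51596560 to 51596877 the day 5 folds were 9.37, 10.3, 8.37 and 10.3. This loss was complete in all 3 vectors, with 0 of 8 calls in the other vectors at day 10 and 8 of 8 at day 5, and it was called in no MEF library. The region on chromosome 11 at 54952011 to 54952312 behaved otherwise. It was called in 0 of 4 Tet2-E libraries at day 10 and had day 5 folds of 8.23, 9.95, 9.67 and 9.16, but it was called in 4 of 4 Tet2-WT and 4 of 4 empty-vector libraries at both days. The difference between vectors at this single region was not tested.

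The fifth loss was also called in 4 of 4 MEF libraries. It lay on chromosome 18 at 19790269 to 19790731, had day 5 folds of 10.9, 11.0, 6.70 and 8.46, and was called in 2 Tet2-WT and 3 empty-vector libraries at day 10, against 4 and 4 at day 5. Chromosome 2 held a pair of the leading losses. At 76469644 to 76470006 the median day 5 fold was 9.30, with calls in 3 Tet2-WT and 0 empty-vector libraries at day 10, against 3 and 4 at day 5. At 37235797 to 37235995 it was 9.47, with calls in 2 Tet2-WT and 3 empty-vector libraries at day 10, against 3 and 2 at day 5, so the other vectors showed no common direction there. Chromosome 14 held a loss at 69963779 to 69964054 with a median day 5 fold of 9.07, called in 3 of the 8 libraries of the other vectors at day 10 and in 8 at day 5. On chromosome 10, the region at 83059839 to 83060055 had a median day 5 fold of 8.99 and was called in 0 of those 8 at day 10, against 7 at day 5. The tenth, at 73559371 to 73559759 of chromosome 9, had a median day 5 fold of 9.01 and was called in 4 at day 10, against 8 at day 5. Of the 10 leading losses, 9 kept their 4 day 5 calls at the common relative depth, and the region on chromosome 9 kept 3. Here too the ranking by fold favours keeping the calls.

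Below the leading regions the changed sites were ordinary peaks. The gains had a median fold of 6.68 and the losses of 6.18 (medians over regions of the median fold over their 4 calling libraries). In percentiles within their lists these are 51.1 for gains and 44.3 for losses. Median widths were 284 bp for gains and 276 bp for losses, against 499 bp for the regions called in all 8 libraries and 255 bp for all regions tested.

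Most gains, and a smaller share of the losses, lay outside fibroblast peaks; this is a description and was not tested. In the untreated MEFs, which did not enter the choice of regions, 86 of the 100 gains (86.0%) were called in 0 of 4 libraries and 2 in 4 of 4. Of the 875 losses, 563 (64.3%) were called in 0 of 4 MEF libraries, 138 (15.8%) in 4 of 4 and 174 in 1 to 3. Over all regions tested, 46.4% had a peak in 0 and 28.8% in 4 MEF libraries. Among regions called in exactly 4 of the 8 Tet2-E libraries, which hold these gains and losses too, the shares were 53.0% and 15.2%. At the common relative depth 190 of 256 gains (74.2%) and 161 of 252 losses (63.9%) were called in 0 MEF libraries, against 41.8% of all regions then tested.

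**Figure D4:**
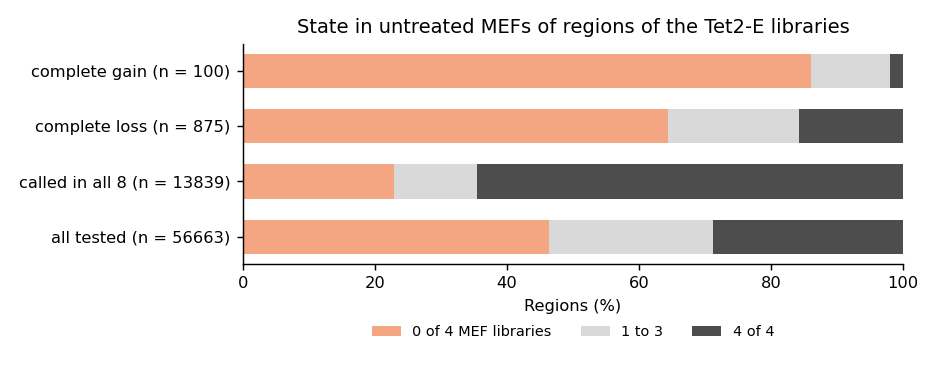
Share in percent of regions called in 0, in 1 to 3 and in 4 of the 4 libraries of untreated MEFs, for complete gains, complete losses, regions called in all 8 Tet2-E libraries and all regions tested. Of the gains, 86.0% were called in no MEF library, against 64.3% of the losses and 22.9% of the regions called in all 8.

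Set in order of time, these regions fall into courses from MEFs through day 5 to day 10. A transient course, with a peak in 0 of 4 libraries of MEFs, 4 of 4 of day 5 and 0 of 4 of day 10, was followed by 563 regions. The leading ones were those on chromosomes 4, 5 and 11 given above. A late closing course, called in 4 of 4, 4 of 4 and 0 of 4 libraries, was followed by 138 regions, led by the region on chromosome 18. It was followed in rank by chromosome 16 at 15251830 to 15252068 (median day 5 fold 8.92) and chromosome 1 at 159575953 to 159576479 (8.70). A late opening course, called in 0 of 4, 0 of 4 and 4 of 4 libraries, was followed by 86 regions. These counts are for all deposited peaks. With the Tet2-E peaks at the common relative depth and the MEF lists as deposited, 161 regions followed the transient course, 49 the late closing and 190 the late opening course. In these counts 0 of 4 at day 5 means that no day 5 peak was kept, and weaker deposited day 5 peaks may lie there. Of the 563 transient regions 101 were still called in all 4 day 5 libraries at that depth, and of the 138 late closing regions 30. No such share over all regions called in all 4 day 5 libraries stands beside these. Background pileup averaged 0.503 ± 0.113 in MEFs, 0.860 ± 0.0562 at day 5 and 0.558 ± 0.180 at day 10 (SD over 4 libraries), so it was highest at day 5, as calls are in the transient course, and its part in these courses was not tested. A return course, with a peak in 4 of 4 libraries of MEFs, 0 of 4 of day 5 and 4 of 4 of day 10, was seen at 2 regions, named after their values were seen. On chromosome 10 at 111109871 to 111110122 the day 10 folds were 10.2, 9.68, 4.78 and 7.35, and the region was called in 3 Tet2-WT and 3 empty-vector libraries at day 10, against 0 and 0 at day 5. On chromosome 18 at 74507710 to 74508105 the day 10 folds were 6.51, 6.96, 6.47 and 7.97, and the region was called in 4 Tet2-WT and 3 empty-vector libraries at day 10, against 1 and 2 at day 5.

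Most regions open at both days in every Tet2-E library were also open in MEFs, and whether they are particular to fibroblasts was not tested. Of the 13839 regions called in all 8 libraries, 8936 (64.6%) had a peak in 4 of 4 MEF libraries and 3168 (22.9%) in none. The 3168 had a median fold of 8.13 and a median width of 455 bp, and the 8936 had 8.80 and 541 bp. The strongest of those absent from MEFs, picked by percentile after their values were seen, lay on chromosome 5 at 16474562 to 16475061. Its folds were 15.1, 14.3, 14.2 and 13.9 at day 10 and 12.2, 15.7, 11.2 and 14.7 at day 5. Next came chromosome 10 at 129856670 to 129857631 (median fold 13.8) and chromosome 16 at 42269338 to 42269870 (13.2), both called in all 16 libraries of the other vectors.

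Chromatin open in MEFs was measured over the 27913 regions called in 4 of 4 MEF libraries when the MEF lists alone were merged. Day 10 libraries called 49.5%, 46.8%, 41.8% and 39.4% of them, and day 5 libraries 52.7%, 55.7%, 51.3% and 50.4%. The groups did not overlap, with day 10 the lower, and within day 10 the order was that of the background pileup. The means were 44.4% ± 4.61 at day 10 and 52.5% ± 2.31 at day 5 (SD over the 4 libraries of a day; exact permutation p = 0.0286, adjusted p = 0.1), so the difference did not pass. With an equal number of peaks the means were 40.2% ± 1.12 at day 10 and 42.0% ± 0.586 at day 5 (exact permutation p = 0.0571, adjusted p = 0.143). At the common relative depth they were 42.9% ± 2.92 at day 10 and 44.4% ± 2.41 at day 5 (exact permutation p = 0.429, adjusted p = 0.743).

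Peaks away from every MEF peak accounted for 44.6%, 44.7%, 38.4% and 34.7% of the day 10 lists and 44.6%, 46.2%, 44.7% and 41.1% of the day 5 lists. The groups overlapped (means of 40.6% ± 4.91 in day 10 libraries and 44.1% ± 2.19 in day 5 libraries, SD over 4 libraries; exact permutation p = 0.257, adjusted p = 0.257). At the common relative depth the order of the means turned, with 38.9% ± 3.69 at day 10 and 38.0% ± 2.41 at day 5 (exact permutation p = 0.743, adjusted p = 0.743). Chromosome X carried 2.04% to 2.26% of the peaks at day 10 and 2.15% to 2.33% at day 5 (exact permutation p = 0.229, adjusted p = 0.257).

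The changed regions were spread over the genome. Complete losses made up from 0.841% (chromosome 19) to 2.32% (chromosome 14) of the regions tested on a chromosome, with 2.24% on chromosome 10 and 2.05% on chromosome X. Gains ranged from none of 2247 regions on chromosome 12 to 0.263% on chromosome 16. In fixed windows of 1000000 bp, losses fell in 698 of the 2491 windows with a region tested, and 145 windows held more than 1. The most in a window was 4, on chromosome 3 at 27000001 to 28000000, where 36 regions were tested, and on chromosome 11 at 5000001 to 6000000, where 41 were tested. Gains fell in 98 windows, of which 1 held more than 1 gain, with 3 gains on chromosome 11 at 100000001 to 101000000. A gain and a loss shared 36 windows. These counts describe the map and were not tested.

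The regions that changed with Tet2-E were then measured in libraries that had not chosen them. Of the 100 gains, Tet2-WT libraries called 85, 85, 68 and 51 at day 10 and 13, 17, 16 and 22 at day 5. Empty-vector libraries called 78, 71, 71 and 43 at day 10 and 12, 20, 14 and 14 at day 5. Every day 10 library lay above every day 5 library of its vector. The share of gains called was higher at day 10 by 55.2 percentage points with Tet2-WT (means 72.2% ± 16.3 at day 10 and 17.0% ± 3.74 at day 5, SD over 4 libraries) and by 50.8 with the empty vector (65.8% ± 15.5 at day 10 and 15.0% ± 3.46 at day 5). Each exact permutation p was 0.0286, the smallest possible, and 0.0286 after adjustment over 4 tests. Without any single empty-vector day 5 library the adjusted p for that vector was 0.0571, and that for Tet2-WT was 0.0571 where a call needed peaks over at least 50% of the region (exact permutation tests).

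The losses recurred in the same way. Tet2-WT libraries called 31.2%, 35.5%, 26.1% and 15.3% of the 875 lost regions at day 10 and 77.1%, 75.9%, 80.8% and 81.0% at day 5. Empty-vector libraries called 30.6%, 23.1%, 20.3% and 17.7% at day 10 and 59.1%, 65.9%, 86.7% and 73.0% at day 5. The groups did not overlap in either vector. The means were 27.0% ± 8.72 at day 10 and 78.7% ± 2.59 at day 5 with Tet2-WT, and 22.9% ± 5.57 at day 10 and 71.2% ± 11.8 at day 5 with the empty vector (SD, n = 4 each; exact permutation p = 0.0286, adjusted p = 0.0286 for each). The background pileup of these vectors moved the same way, at 0.395 to 0.619 at day 10 and 0.844 to 1.04 at day 5 with Tet2-WT, and 0.420 to 0.506 at day 10 and 0.746 to 0.881 at day 5 with the empty vector. The 6311 regions called in exactly 4 of the 8 Tet2-E libraries, whatever their day, were called at 39.0% at day 10 and 62.8% at day 5 with Tet2-WT, and at 34.1% at day 10 and 56.7% at day 5 with the empty vector. There too every day 10 library lay below every day 5 library of its vector. The highest at day 10 and lowest at day 5 were 51.1% and 57.8% with Tet2-WT. With the empty vector they were 41.7% and 47.3%. That set was not tested, and the absence of overlap with all deposited peaks is not particular to the losses. At a common relative depth of the 24 reprogramming libraries the regions called in exactly 4 of 8, then 4716, stood at 49.96% at day 10 and 48.7% at day 5 with Tet2-WT and at 46.9% at day 10 and 47.2% at day 5 with the empty vector. The losses chosen there, 252 regions, were still called at 35.2% at day 10 and 72.9% at day 5 with Tet2-WT and at 33.7% at day 10 and 72.0% at day 5 with the empty vector (exact permutation p = 0.0286, adjusted p = 0.0286 for each). The 256 gains chosen there were called at 75.5% at day 10 and 19.4% at day 5 with Tet2-WT and at 67.4% at day 10 and 18.4% at day 5 with the empty vector (exact permutation p = 0.0286, adjusted p = 0.0286 for each).

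**Figure D5:**
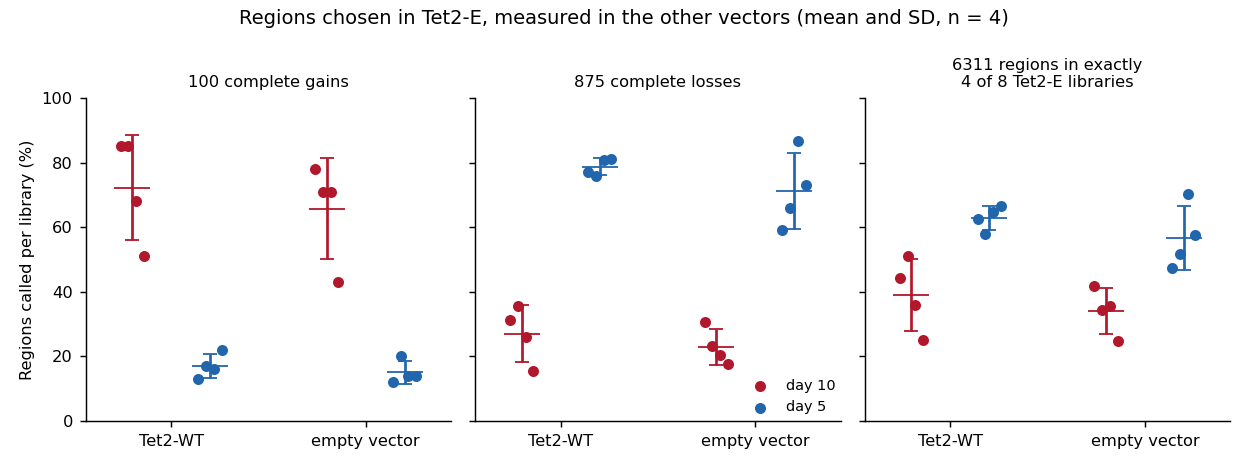
Share in percent of regions called in each Tet2-WT and empty-vector library at day 10 and day 5, for the complete gains and losses chosen in Tet2-E and for all regions called in exactly 4 of the 8 Tet2-E libraries. Points are libraries and bars the mean and SD. Gains lie between 43% and 85% at day 10 and between 12% and 22% at day 5, and losses between 15.3% and 35.5% at day 10 and between 59.1% and 86.7% at day 5.

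Counted region by region, 79 of the 100 gains were called in more day 10 than day 5 libraries in both other vectors, and 6 in neither. Of the 875 losses, 680 (77.7%) were called in fewer day 10 than day 5 libraries in both other vectors, and 36 in neither. No such count over all regions tested stands beside these, so the part particular to the chosen regions is not known. Regions called in exactly 4 of 8 Tet2-E libraries also leaned to day 5. Day 10 minus day 5, their share changed by -22.6 points with the empty vector and -23.8 with Tet2-WT. A complete pattern was rarer than a shared direction. Of the gains, 21 were complete in Tet2-WT, 16 in the empty vector and 9 in both. Of the losses, 122 were complete in Tet2-WT, 94 in the empty vector and 19 in both. Among the regions tested in Tet2-WT by itself, 0.286% were complete gains and 2.27% complete losses. With the empty vector these were 0.196% and 1.81%. The share of all tested regions that were complete in both was not counted. The 19 included the region on chromosome 5 at 51596560 given above, and next in rank chromosome 7 at 94335354 to 94335624 (median day 5 fold 8.74) and chromosome 16 at 65406110 to 65406498 (8.43). The 9 gains were led by the region on chromosome 19, with chromosome 13 at 91008823 to 91009160 (median day 10 fold 7.40) and chromosome 4 at 136720931 to 136721227 (7.30) next. The highest-ranked of the 6 gains that were called in more day 10 libraries in neither vector lay on chromosome 5 at 149648684 to 149648891 (median day 10 fold 6.53). It was called in 1 Tet2-WT and 1 empty-vector library at day 10, against 1 and 2 at day 5. Among the 36 losses of that kind, the region on chromosome 11 at 54952011 ranked first and one on chromosome 5 at 107508905 to 107509319 second (median day 5 fold 8.47). It was called in 4 Tet2-WT and 3 empty-vector libraries at day 10, and in the same numbers at day 5.

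Each of the other vectors had its own complete changes. By the same rule Tet2-WT had 174 gains and 1376 losses among 60746 regions tested (0.286% and 2.27%), and the empty vector 112 gains and 1031 losses among 57033 (0.196% and 1.81%). The empty-vector regions gave a choice of sites that favours neither Tet2 arm. Of its 112 gains, Tet2-E libraries called 91.1%, 83.9%, 58.0% and 65.2% at day 10 and 15.2%, 34.8%, 18.8% and 11.6% at day 5. Of its 1031 losses, they called 37.3%, 29.7%, 19.98% and 13.8% at day 10 and 69.3%, 80.6%, 67.3% and 64.8% at day 5. The groups did not overlap in either set (exact permutation p = 0.0286, adjusted p = 0.0286 over 4 tests for each). The 6413 regions called in exactly 4 of the 8 empty-vector libraries, whatever their day, were called in Tet2-E at 35.1% at day 10 and 57.4% at day 5, a difference of -22.3 points. At the common relative depth such regions, then 4865, stood at 43.8% at day 10 and 45.8% at day 5 in Tet2-E, and the 225 empty-vector losses at 30.4% at day 10 and 66.2% at day 5 (exact permutation p = 0.0286, adjusted p = 0.0286). With all deposited peaks, the change from day 5 to day 10 was 54.5 percentage points for the gains with Tet2-E and 55.4 with Tet2-WT, and -45.3 points for the losses with Tet2-E and -48.6 with Tet2-WT. The differences of these changes, Tet2-E minus Tet2-WT, were -0.893 points for gains and 3.30 points for losses, and neither passed (exact permutation of the vector labels within days, p = 0.950 and 0.660, adjusted p = 0.950 for each).

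The day change of Tet2-E was set against that of each other vector in 5 measures per library. Day 10 minus day 5, the MEF-open share was -8.12 points with Tet2-E, -10.5 with Tet2-WT and -10.2 with the empty vector. For the share of peaks outside MEF peaks it was -3.53 points with Tet2-E, -1.50 with Tet2-WT and -3.25 with the empty vector. None of the 10 differences passed (exact permutation of vector labels within days, lowest p = 0.507, lowest adjusted p = 0.927). A p that misses the threshold does not show that the vectors act alike.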

How the data were processed

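The authors deposited a separate peak list for every library, without pooling replicates. The submitters' processing notes name Bowtie2, SAMtools, bedtools, MACS2 and the build mm9; tool versions, settings, filters on reads and the handling of cut sites are not stated there. Each deposited list holds a fold (a ratio of summit pileup plus 1 to local background plus 1), -log10 p, -log10 q, a score of 10 times -log10 q and the summit position. Every list stops just above a -log10 q of 2. A summit pileup computed from fold and -log10 p was a whole number in all peaks (within 0.001 in -log10 p). The commonest background of a list was taken as its relative depth. Read totals were not used here.

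Peaks on 20 chromosomes were kept. Overlapping peaks (1 bp or more) of the 8 Tet2-E lists were merged, a library called a region where a peak of it overlapped, and regions in at least 2 libraries were tested by 2-sided Fisher's exact tests with Benjamini-Hochberg adjustment. The days were compared on library values with exact permutation tests, 2-sided, over the 70 assignments of 4 against 4, adjusted over 7 measures, and differences between vectors by permuting vector labels within days (4900 assignments). Similarity was tested 1-sided. The threshold was 0.05. Named regions were the 10 complete gains and 10 complete losses with the highest median percentile of fold within their lists, and the other regions in the text were chosen after their values were seen. The planned description of sequence motifs and genes was not run, since no mm9 genome was used here. Regions and tests were chosen with earlier results of these data known. Python 3.11.15, numpy 2.4.6, pandas 2.3.3 and SciPy 1.17.1 were used, and the scripts were tested on simulated data.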

Additional observations from a re-analysis of the deposited data

Results flagged for a closer look

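Peaks outside chromosomes 1 to 19 and X, which entered no comparison, made up a larger share of the Tet2-E lists than of the MEF lists. They averaged 0.383% of the peaks at day 10 and 0.374% at day 5, against 0.256% in MEFs. Every day 10 library (0.369% to 0.391%) and every day 5 library (0.347% to 0.399%) lay above every MEF library (0.252% to 0.265%). The 2 days overlapped. The other vectors stood above MEFs too. Their means were 0.372% at day 10 and 0.366% at day 5 with the empty vector, and 0.368% and 0.369% with Tet2-WT. Dixon's test marked no single library in the 30 groups it was applied to. Those groups are not listed here, so the test is no check of the shares above. MEF replicate 1 (0.265%) lay apart from MEF replicates 2, 3 and 4 (0.253%, 0.252% and 0.252%). In covered length, Tet2-WT day 5 replicate 2 (10.1 Mb) lay apart from replicates 1, 3 and 4 (11.5, 11.6 and 11.5 Mb).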

How the results depend on the processing

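Of 97 alternatives that keep all libraries, 75 were counted as unchanged, in direction and side of the threshold where a test was run. Counts of complete gains and losses have no such side. The 7 measures per library and the vector differences did not pass with all deposited peaks either. For those, staying on the same side says little. Complete gains and losses numbered 228 and 340 with equal numbers of peaks and 256 and 252 at the common relative depth, and gains 47 with at least 50% of a region covered. Leaving out 1 library gave 115 to 325 gains, 1006 to 1720 losses, a similarity difference of 0.0258 to 0.0660, and a change of Tet2-E gains in the empty vector of 46.7 to 58.3 points. With at least 50% covered the change of Tet2-E gains in Tet2-WT was 32.4 points (exact permutation p = 0.0571). At the common relative depth the day 10 minus day 5 difference turned to 1253 peaks per library and to 0.903 points of peaks outside MEF peaks. Tet2-E minus another vector turned to -1243 peaks against the empty vector, -2906.5 peaks and -0.199 Mb covered against Tet2-WT, and for empty-vector losses to -2.0 points, or to -0.550 with equal numbers of peaks. None of these turned values passed a test before or after. The cause was not tested. The common relative depth was chosen after the data were seen.

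Replicate numbers gave no steady pairing of the libraries: the correlation of same-numbered libraries was 0.00252, 0.0101, 0.0231 and -0.0178 for numbers 1 to 4. The highest correlation with another number was 0.00554, 0.0182, -0.00299 and 0.0167. Only for number 3 was the same number the best match. With the replicate number as a block, the exact sign-flip test cannot go below p = 0.125. It left 0 regions at an unadjusted p under 0.05 and gave an exact p of 0.125 for the same differences. Those were 50.75 and 55.25 points for Tet2-E gains in the empty vector and Tet2-WT, -48.3 and -51.7 for Tet2-E losses, 54.5 and 55.4 for empty-vector gains in Tet2-E and Tet2-WT, and -45.3 and -48.6 for empty-vector losses.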

Other observations

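Summit positions inside the 13839 regions called in all 8 Tet2-E libraries were compared after the data were seen. The median distance between the summits of 2 libraries averaged 44.0 bp within day 10, 40.2 bp within day 5 and 42.4 bp between the days (exact permutation p = 0.143). Summits lay within 50 bp of each other in 54.5% of regions within day 10, 57.9% within day 5 and 55.9% between the days (exact permutation p = 0.0857).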
